A study of Mus musculus with 4 samples.

Results

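The surface proteins encoded by Prom1, Cd34, Alcam, Thy1, Cd44, Cd24a, Ly6a, Epcam and Kit are in common use for sorting stem and progenitor cells, and their transcripts were followed in mouse liver cell lines. A probe set was taken where the platform annotation gives it a single symbol equal to one of these 9 names, which gave 19 of the 45101 probe sets and 8 of the 18193 genes with a named probe set. Ly6a had no probe set named here and was not analysed here. Resident liver stem cells (RLSC) were represented by 2 lines, each on 1 array. MetE14/3 came from clone B2 of liver cultures of cyto-Met transgenic embryos at 14 days post coitum, and WTE14/1 from liver cultures of embryos labelled WT E14 of that age. Cyto-Met is a truncated form of the receptor Met, and the promoter that drives it is not given in the sources used here. For both lines, colonies of palmate morphology were picked and expanded in DMEM with 10% serum on collagen-I for about 50 generations before freezing. MMH-D3, the line they were set against, is known as a differentiated hepatocytic line and was measured on 2 arrays. Its labels describe RPMI-1640 with 10% serum, epidermal growth factor, insulin-like growth factor II and insulin for primary cultures, and do not give the genotype or donor age of the line itself. Line and medium therefore cannot be told apart. Whether the repeated MMH-D3 arrays used separate cultures is not stated, so their spread may be technical. The RLSC pair consists of 2 different lines, cyto-Met and WT, so its spread includes the difference between lines. All p-values rest on the spread within these pairs.

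Poly-A control probe sets, 24 in number, divided the arrays into batches that cut across the groups. They were higher by a median of 10.6-fold on the arrays of MetE14/3 and MMH-D3 array 1 (batch A) than on those of WTE14/1 and MMH-D3 array 2 (batch B). Median signals ran from 16.9 to 28.0 over the 4 arrays, whose small number limits the precision. As a check of the hepatocyte label, 8 of 12 marker genes could be tested. All 8 were lower in both RLSC lines than on either MMH-D3 array (21.4% of all genes), and 4 passed the test as lower (0.516% of all genes). These were Apob, Rbp4, Ambp and Afp, which passed under 8, 7, 6 and 6 of 13 tested alternatives. A filter on dim probe sets (a signal of about 11.7) preceded the test. RLSC means of Alb, Ttr, Apoa1 and Ambp were 2.30, 6.79, 2.61 and 7.72, below that level. Those genes entered the test through the MMH-D3 arrays alone, so a lower RLSC value was largely set by the filter for them. Tat, G6pc and Cps1, markers of mature hepatocyte function, stayed at signals of 0.4 to 24.5 on all 4 arrays, MMH-D3 included, and were not tested.

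These proteins stand at the cell surface in different ways. CD34 is a sialomucin of blood progenitors and endothelium, and prominin 1 (Prom1, CD133) is a multispan glycoprotein of membrane protrusions. EpCAM and ALCAM (CD166) are adhesion molecules, and EpCAM marks hepatoblasts and bile duct cells. CD44 binds hyaluronan, CD24 (Cd24a) and Thy-1 (CD90) are small proteins held by a lipid anchor, and Kit is the receptor of stem cell factor. Each is shared with some differentiated epithelial, mesenchymal or blood cells.

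Promoter windows are shown for Cd34, Epcam, Alcam and Prom1, the surface marker genes past the filter whose arrays spanned at least 4-fold on the log2(value + 4) scale. Each window is the 250 bases before the RefSeq start on GRCm38.p6, written 5′ to 3′ on the strand of the gene. Cd34 lies at chr1:194938571-194938820 (plus strand), Epcam at chr17:87635729-87635978 (plus), Alcam at chr16:52453082-52453331 (minus) and the upstream one of the Prom1 starts at chr5:44101737-44101986 (minus). Capitals mark CACCTG or its reverse complement CAGGTG, an E-box that repressors of the Snail and ZEB families are known to bind.
Cd34: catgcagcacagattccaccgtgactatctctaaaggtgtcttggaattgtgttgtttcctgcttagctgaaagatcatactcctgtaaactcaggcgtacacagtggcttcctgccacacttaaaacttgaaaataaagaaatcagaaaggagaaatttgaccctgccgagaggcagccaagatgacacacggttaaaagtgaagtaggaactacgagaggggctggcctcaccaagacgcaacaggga
Epcam: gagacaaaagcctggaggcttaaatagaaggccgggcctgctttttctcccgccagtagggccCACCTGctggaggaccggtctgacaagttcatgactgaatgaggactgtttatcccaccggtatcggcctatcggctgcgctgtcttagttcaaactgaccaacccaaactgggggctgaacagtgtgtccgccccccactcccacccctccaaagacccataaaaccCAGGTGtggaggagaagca
Alcam: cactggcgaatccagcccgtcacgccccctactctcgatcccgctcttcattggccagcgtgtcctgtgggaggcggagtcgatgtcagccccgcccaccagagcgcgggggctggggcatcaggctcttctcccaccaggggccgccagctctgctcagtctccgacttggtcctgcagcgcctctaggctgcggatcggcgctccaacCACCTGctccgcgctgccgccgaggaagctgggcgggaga
Prom1: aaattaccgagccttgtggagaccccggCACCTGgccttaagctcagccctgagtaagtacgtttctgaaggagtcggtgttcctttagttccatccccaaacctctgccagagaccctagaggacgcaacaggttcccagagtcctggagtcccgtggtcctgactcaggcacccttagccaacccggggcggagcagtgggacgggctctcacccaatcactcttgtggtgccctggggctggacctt
Epcam held 2 matches, whose first bases lie 187 and 19 bases before the start. Alcam held 1, at 40 bases, and Prom1 held 1, at 222 bases. The Cd34 window held none, and neither did those of Cd44, of Kit or of the other Prom1 start. Both strands were searched, and 17.2% of all 32851 windows of this length held a match. The GC box GGGCGG, also searched on both strands, had 2 matches in Alcam, 1 in Epcam, 1 in this Prom1 window and none in Cd34, and 32.7% of all windows held at least 1. The Alcam window held 22 CpG, against 8 in Epcam, 9 in Prom1, 6 in Cd34 and a median of 6 over all windows. A match describes these letters and is no measured binding site.

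The first comparison asked how the RLSC lines differed from MMH-D3 in these markers. Cd34 signals stood higher in both RLSC lines and Epcam signals lower. Alcam averaged lower in RLSC, with WTE14/1 near or above 1 of the MMH-D3 arrays, while Cd24a and Cd44 were bright in both groups and Thy1 and Kit dim in both. No surface marker passed the test. Of 6 genes and 14 probe sets past the filter on dim probe sets, 0 were called by limma, against 0.913% of the 12598 genes and 0.733% of the 27022 probe sets tested. The test was run on log2(value + 4), with Benjamini-Hochberg adjustment over all features and a threshold of 0.05, and each difference given is RLSC minus MMH-D3 on that scale. At an unadjusted limma p under 0.05 stood 2 of the 6 genes, Cd34 and Epcam (12.4% of all genes), and 2 of the 14 probe sets (10.7% of all probe sets). RLSC values exceeded both MMH-D3 values in both lines at 2 genes, Cd34 and Cd24a (20.8% of all genes), and fell short of them at 2, Epcam and Alcam (21.4%). Of the probe sets, 4 were higher without overlap (21.2% of all probe sets), 4 were lower (19.5%) and 6 overlapped. Thy1 and Kit lay below the filter, a signal of about 11.7, and were not tested. The median difference was 0.06 over the 6 genes, which lay on both sides of 0, and 0.03 over all genes tested. The median absolute difference was 1.14 over the 6 genes and 0.45 over all genes tested.

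For Cd34, MetE14/3 gave a signal of 94.1 and WTE14/1 gave 164, whereas the MMH-D3 arrays gave 12.4 and 8.69. The groups did not overlap, and the gene passed the filter through the RLSC lines alone, since the MMH-D3 mean lay below the filter level. The RLSC mean was 129 ± 49.4 and the MMH-D3 mean 10.5 ± 2.62 (SD, n = 2 each). Their difference of 2.99 (SE 0.57, 95% interval 1.62 to 4.36) was not called by limma (adjusted p = 0.0880). Batch A alone gave 2.32 and batch B alone 3.67. With MMH-D3 near the filter level, the difference was 3.28 with a pseudocount of 1 and 2.29 with 16. CD34 also marks blood and endothelial cells, and the part of such cells was not tested. The filter was passed by 6 of 13 blood markers and 5 of 12 endothelial markers, whose summed levels are given below for each array. Ptprc, the pan-leukocyte phosphatase, gave 13.7 and 2.54 on the RLSC arrays and 3.0 and 11 on those of MMH-D3. The endothelial adhesion gene Pecam1 gave 1.3 and 4.04 on the RLSC arrays and 1.1 and 5.07 on the MMH-D3 arrays.

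Epcam lay lower in RLSC. On its brighter probe set (1416579_a_at), MetE14/3 gave 39 and WTE14/1 gave 8.56, whereas the MMH-D3 arrays gave 121 and 453. The groups did not overlap, and WTE14/1 was the only array under the filter level. The RLSC mean was 23.8 ± 21.5 and the MMH-D3 mean 287 ± 235 (SD, n = 2 each). The difference was -3.55 (SE 0.88, 95% interval -5.68 to -1.42, limma adjusted p = 0.162), with -1.70 from batch A alone and -5.40 from batch B alone. On the second Epcam probe set (1447899_x_at, a type whose probes may also match other transcripts) the RLSC lines gave 35.5 and 28.1 and the MMH-D3 arrays 38.5 and 104. The order of the 4 arrays was the same, with a smaller difference of -1.19 (SE 0.55, limma adjusted p = 0.526) and MetE14/3 close to MMH-D3 array 1.

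Alcam, an immunoglobulin-type adhesion molecule that binds CD6, had 5 probe sets, 4 of them past the filter. On the representing one (1426300_at) MetE14/3 gave 116 and WTE14/1 gave 520, whereas the MMH-D3 arrays gave 530.0 and 1285. WTE14/1 and MMH-D3 array 1 were nearly equal, so that the groups were kept apart by a narrow margin. The difference was -1.76 (SE 0.80, 95% interval -3.69 to 0.17, limma adjusted p = 0.457). It was -0.71 without MetE14/3 and -2.82 without WTE14/1. Over the 4 probe sets the difference ran from -2.01 to -1.66, from -2.51 to -2.19 in batch A and from -1.50 to -1.06 in batch B. In all 5 probe sets MetE14/3 was the lowest array and MMH-D3 array 2 the highest. In the other 3 past the filter (1437467_at, 1426301_at and 1437466_at) WTE14/1 gave 562, 541 and 310.3, slightly or clearly above MMH-D3 array 1 at 330, 313 and 305. After normalization 2 of the 4 overlapped. The fifth probe set (1443086_at) gave 0.5 and 21.9 on the RLSC arrays and 4.5 and 28.4 on the MMH-D3 arrays, below the filter on average.

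**Figure D1:**
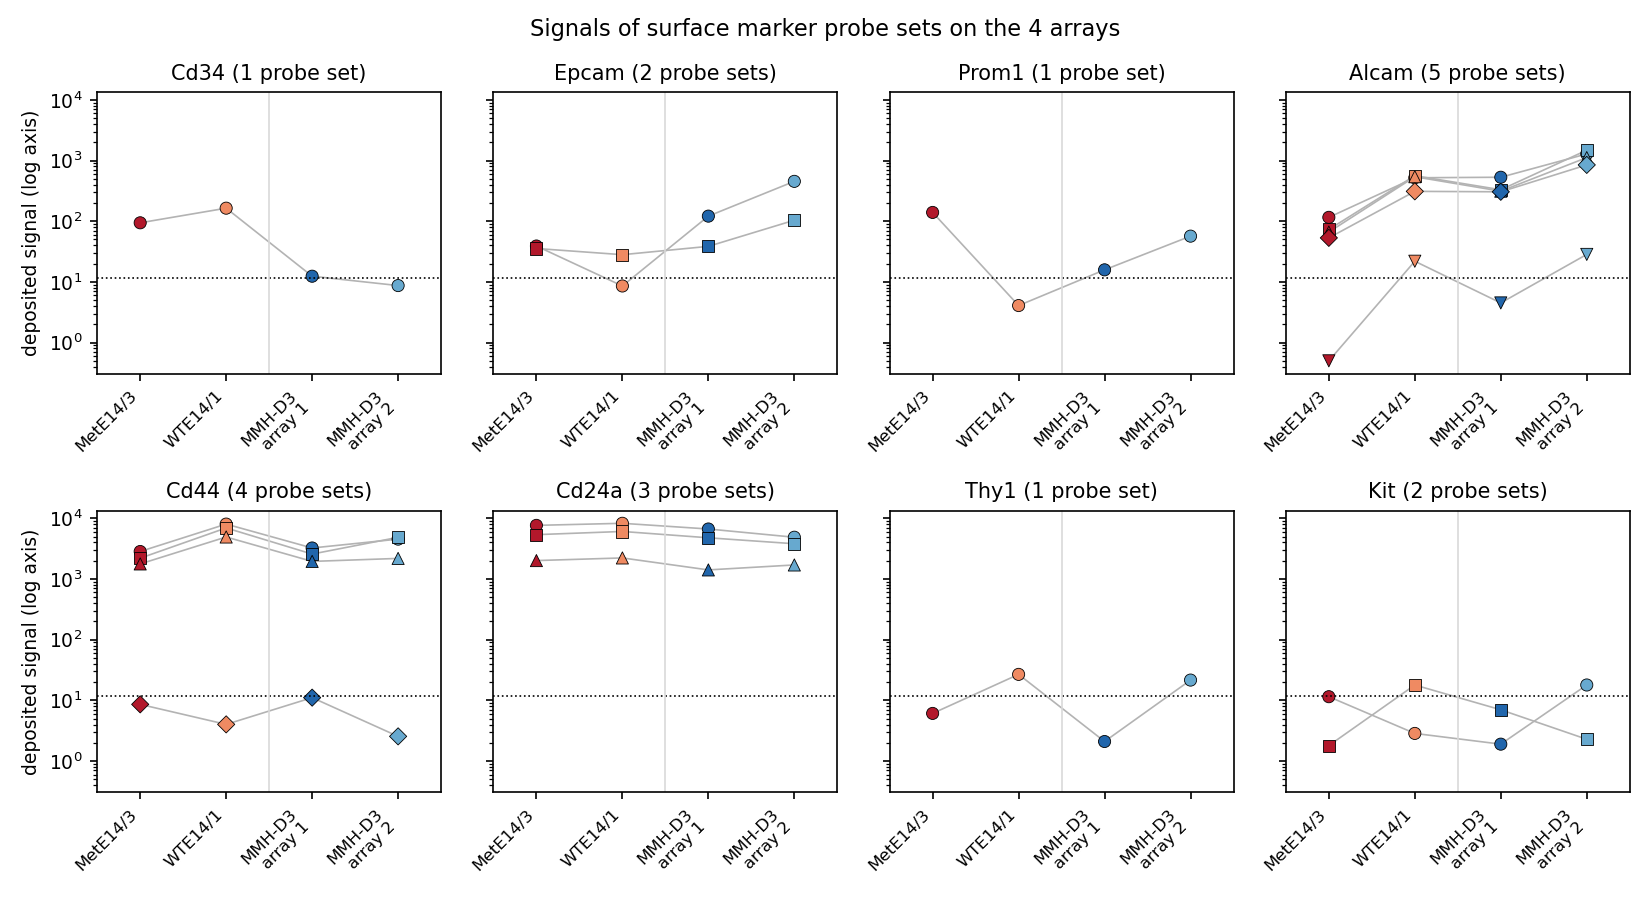
Deposited signal (log axis) of every probe set of the 8 surface marker genes on the 4 arrays, with RLSC in red shades left of the grey line and MMH-D3 in blue right of it. Each marker shape is a probe set, grey lines join its arrays, and the dotted line is the filter level of about 11.7. Cd34 is far above the line in both RLSC lines and near it in MMH-D3, Cd24a is high everywhere, and Thy1 and Kit lie around the line.

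Cd24a, a small mucin-like protein of many progenitor and epithelial cells, was abundant in both groups. Its brightest probe set (1448182_a_at) gave 7656 in MetE14/3 and 8280 in WTE14/1, whereas MMH-D3 gave 6670 and 4880. Both RLSC lines were above both MMH-D3 arrays in all 3 Cd24a probe sets. The RLSC mean was 7968 ± 442 and the MMH-D3 mean 5775 ± 1265 (SD, n = 2 each). The difference was 0.51 (SE 0.24, 95% interval -0.07 to 1.09, limma adjusted p = 0.474), which limma did not call. Differences of the 3 probe sets lay between 0.47 and 0.51, and they were positive in both batches. Centring each array on its median lowered the difference of the brightest probe set to 0.27.

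For Cd44, the hyaluronan receptor, the RLSC lines stood at the 2 ends of the range. On the representing probe set (1423760_at) MetE14/3 gave 2842 and WTE14/1 gave 8035, whereas the MMH-D3 arrays gave 3245 and 4543. MetE14/3 was thus the lowest array and WTE14/1 the highest, and the same order held in all 3 probe sets past the filter. The difference of 0.33 (SE 0.50, 95% interval -0.88 to 1.54, limma adjusted p = 0.876) was smaller than its error, with -0.080 from batch A alone and 0.74 from batch B alone. The fourth Cd44 probe set (1443265_at) gave 8.6 and 4.02 on the RLSC arrays and 11.1 and 2.55 on the MMH-D3 arrays, all below the filter level.

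Prom1 set the RLSC lines widest apart. Its single probe set gave 140 in MetE14/3 but 4.07 in WTE14/1, whereas MMH-D3 gave 15.8 and 56.7. MetE14/3 was above both MMH-D3 arrays and WTE14/1 below both. The RLSC mean was 71.8 ± 95.8 and the MMH-D3 mean 36.3 ± 28.9 (SD, n = 2 each). Their difference of -0.22 (SE 1.37, 95% interval -3.55 to 3.11, limma adjusted p = 0.976) leaves the direction unknown. Batch A alone gave 2.57 and batch B alone -3.01, and the difference turned to 0.12 with a pseudocount of 16.

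Thy1 and Kit stayed near the floor. Thy1, a marker of mesenchymal and some hepatic progenitor cells, gave 6.1 in MetE14/3 and 26.8 in WTE14/1, whereas MMH-D3 gave 2.1 and 21.6. Both batch B arrays were above the filter level and both batch A arrays below it. The first Kit probe set (1452514_a_at) gave 11.5 and 2.86 on the RLSC arrays and 1.9 and 17.9 on those of MMH-D3. The second (1415900_a_at) gave 1.8 and 17.9 on the RLSC arrays and 7.0 and 2.29 on the MMH-D3 arrays, in another order of the arrays. Stem cell factor (Kitl), the ligand of Kit, was well above the filter level, at 1297 and 1428 on the RLSC arrays and 885 and 2568 on those of MMH-D3. Its difference of -0.13 (SE 0.55) was not called by limma (adjusted p = 0.967).

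**Figure D2:**
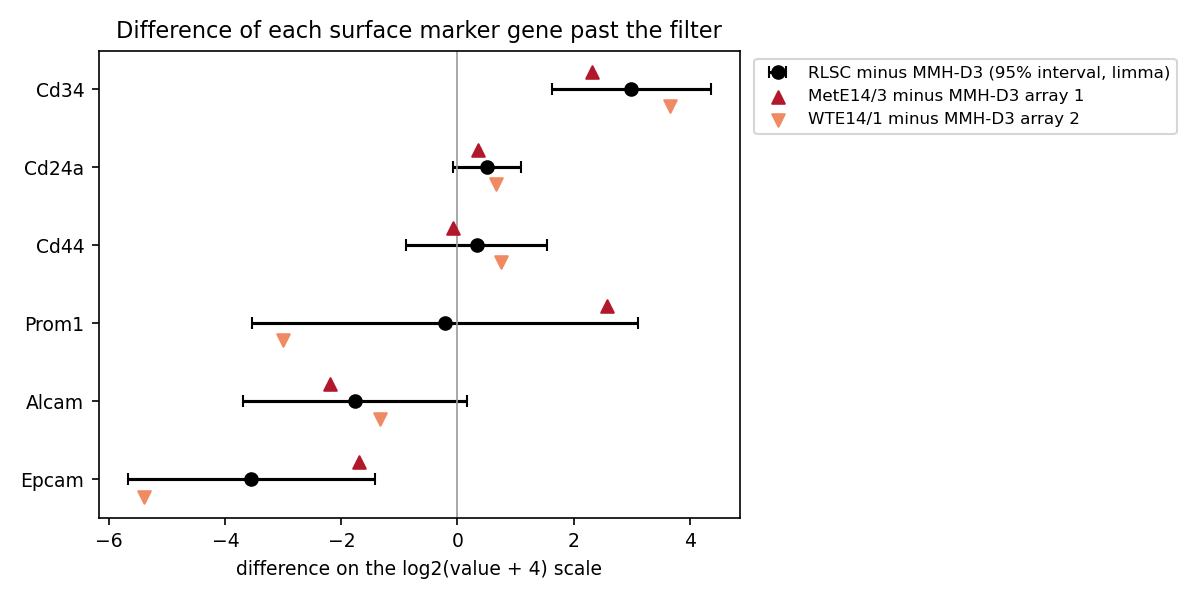
Difference RLSC minus MMH-D3 on the log2(value + 4) scale for the 6 surface marker genes past the filter, with the 95% interval from limma (black) and the difference within batch A (upward triangles) and batch B (downward triangles). The Cd34 interval lies above 0 and the Epcam interval below it, and the batches fall on opposite sides of 0 for Cd44 and Prom1.

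MetE14/3 was next set against WTE14/1, as a description of 1 array each. Prom1 and Epcam were at least 4-fold higher in MetE14/3 than in WTE14/1, and Alcam at least 4-fold lower. Thus 2 of the 6 genes were 4-fold higher in MetE14/3 (2.8% of all genes) and 1 lower (2.33%). Between the MMH-D3 arrays 0 of the 6 were 4-fold apart, against 5.96% of all genes. Prom1 differed by 4.32 on the log2 scale (MetE14/3 minus WTE14/1), and by 1.26 between MMH-D3 array 2 and array 1. WTE14/1 lies below the filter level, and with a pseudocount of 16 the line difference of Prom1 was 3.02. For Epcam the line difference of 2.04 was close to the MMH-D3 array difference of 1.65, and it fell under 4-fold without normalization (1.78) and with a pseudocount of 16 (1.31). The second Epcam probe set differed by 0.68 between the lines. The 4 Alcam probe sets differed by -2.95 to -2.11 between the lines and by 1.26 to 2.10 between MMH-D3 array 2 and array 1. For Alcam, Cd44 and Thy1 the batch B array was the higher one in both groups, and the part of the batch in these line differences was not tested. Cd44 differed by -1.43 and Cd34 by -0.65, both under 4-fold. Cd24a had no settled direction between the lines, at 0.079 after normalization and -0.11 without it, and at -0.13 and -0.23 on its other probe sets.

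**Figure D3:**
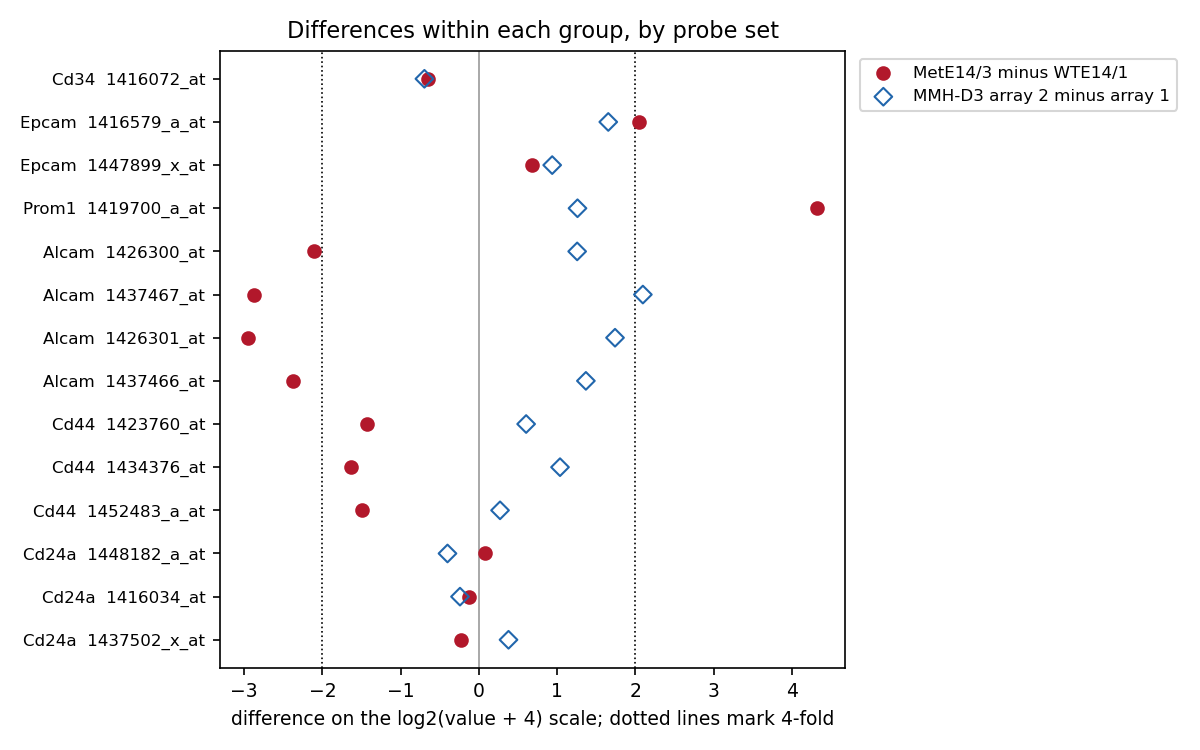
Differences within each group for the 14 surface marker probe sets past the filter, on the log2(value + 4) scale: MetE14/3 minus WTE14/1 (red points) and MMH-D3 array 2 minus array 1 (open blue diamonds). Dotted lines mark 4-fold. Prom1 lies farthest right at 4.32, and the 4 Alcam probe sets lie left of -2 with their MMH-D3 differences on the other side of 0.

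Genes that act with these receptors were examined as a list of 28 ligands and binding partners, of which 23 had a probe set and 17 were tested. Of the 17, 1 passed as higher in RLSC and 1 as lower (0.397% and 0.516% of all genes), and the list median was 0.49. Has2, which makes the CD44 ligand hyaluronan, gave 420 in MetE14/3 and 250 in WTE14/1, whereas MMH-D3 gave 7.2 and 9.53. Its difference was 4.62 (SE 0.53, limma adjusted p = 0.0331), with 5.02 from batch A alone and 4.22 from batch B alone. Both MMH-D3 values lie below the filter level, so the gene entered the test through the RLSC lines alone, and the difference was 3.73 with a pseudocount of 16. Tspan8, a tetraspanin found with EpCAM and CD44 in carcinoma cells, gave 324 and 277 on the RLSC arrays and 7411 and 11408 on the MMH-D3 arrays. Its difference was -4.91 (SE 0.36, limma adjusted p = 0.0150). These calls need both MMH-D3 arrays, and fits lacking 1 of them called no gene. The limma adjusted p of Has2 was 0.0849 without array 1 and 0.238 without array 2, and that of Tspan8 0.0699 and 0.203. Without WTE14/1 that of Has2 was 0.0691. Esrp2, an epithelial splicing factor that promotes variant exons of CD44, gave 64.4 and 55.5 on the RLSC arrays and 384 and 572 on the MMH-D3 arrays and did not pass (-3.06, SE 0.48, limma adjusted p = 0.0540). Its relative Esrp1 stayed at 0.7 to 2.25 on all arrays. Cldn7, a tight junction gene whose product binds EpCAM, gave 2.4 and 1.14 on the RLSC arrays, against 10.0 and 65.0 in MMH-D3, and lay below the filter. Spp1 had no probe set named here.

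Other surface markers of the same lineages lay on both sides of 0. Of 20 other liver progenitor markers with a probe set (Cd24a among them), 17 were tested and 0 passed by limma. At an unadjusted limma p under 0.05 stood 4 (12.4% of all genes), and the median was -0.06. E-cadherin (Cdh1) gave 522 and 45.2 on the RLSC arrays and 3816 and 7390 on the MMH-D3 arrays (-5.16, SE 1.15, limma adjusted p = 0.129). The Wnt receptor gene Fzd2 gave 541 and 607 on the RLSC arrays and 48.9 and 22.4 on the MMH-D3 arrays (3.83, SE 0.59, limma adjusted p = 0.0540). Dlk1, a hepatoblast marker, stood near the filter level at 13.6 and 11.4 on the RLSC arrays and 14.4 and 15.5 on the MMH-D3 arrays. Among other mesenchymal stromal markers, 12 of 17 were tested, with 1 higher (0.397% of all genes), 0 lower (0.516%) and a median of 0.31. The 1 that rose was Mcam (CD146), an adhesion molecule of pericytes and endothelium. It gave 822 and 1396 on the RLSC arrays and 14.6 and 8.54 on the MMH-D3 arrays (6.05, SE 0.56, limma adjusted p = 0.0295). With an MMH-D3 mean of 11.6, just below the filter level, Mcam passed the filter through the RLSC lines alone. Its limma adjusted p was 0.0669 without WTE14/1, 0.0699 without MMH-D3 array 1 and 0.238 without MMH-D3 array 2. The stromal marker Nt5e (CD73) gave 29.2 and 15.2 on the RLSC arrays and 265 and 4507 on the MMH-D3 arrays and did not pass (-5.60, SE 1.25, limma adjusted p = 0.129). Endoglin (Eng) had a difference of 0.76 (SE 0.61) without passing.

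Blood stem cell markers and Ly6 and related genes gave no call. Of 15 other haematopoietic stem cell markers with a probe set, 6 were tested and 0 passed by limma. At an unadjusted limma p under 0.05 stood 1 (12.4% of all genes), and the median was -0.23. Cd47 with -1.32 (SE 0.36) and Esam with -0.92 (SE 0.61) lay farthest from 0. Of 19 Ly6 and related genes with a probe set, 13 were tested and 0 passed by limma. At an unadjusted limma p under 0.05 stood 5 (12.4% of all genes), and the median was -0.35. Both RLSC lines lay above both MMH-D3 arrays at 2 of the 13 (20.8% of all genes) and below both at 5 (21.4%). Ly6e was higher in RLSC without passing (2.51, SE 0.73, limma adjusted p = 0.225). It gave 1820.5 and 875 on the RLSC arrays and 92.1 and 447 on the MMH-D3 arrays. Slurp1 with -3.24 (SE 0.74) and Lypd6b with -3.12 (SE 0.62) lay farthest from 0. Their RLSC means, 10.5 and 1.53, lay below the filter level of about 11.7. Both genes entered the test through the MMH-D3 arrays alone, so a lower RLSC value was largely set by the filter.

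Markers of cell types that the cultures could hold were read beside these results. Blood cell markers, 13 with a probe set, summed to 553 and 496 on the RLSC arrays and 1984 and 3898 on the MMH-D3 arrays. Most of the MMH-D3 sum was Cd14 at 1799 and 3594 (-3.20, SE 0.53, limma adjusted p = 0.0607). None of the 6 tested passed by limma, with 1 at an unadjusted p under 0.05 (12.4% of all genes). Their median was -0.12, and Adgre1 had a difference of -0.42 (SE 0.62). Endothelial markers summed to 179 and 281 on the RLSC arrays and 241 and 350.2 on the MMH-D3 arrays. Of 5 tested, 0 passed by limma and 0 had an unadjusted p under 0.05 (12.4% of all genes). Their median was -0.37, and Flt1 had a difference of -1.22 (SE 0.53). Mesenchymal and stellate markers summed to 15836 and 28521 on the RLSC arrays and 14092 and 14340 on the MMH-D3 arrays. Most of each sum was Vim, at 13466 and 17248 on the RLSC arrays and 13957 and 14172 on the MMH-D3 arrays (0.12, SE 0.18, limma adjusted p = 0.873). Of the 8 tested, Tagln and Acta2 were called higher (0.397% of all genes) and 0 lower (0.516%), with a median of 1.04. The MMH-D3 signals of Tagln, 8.8 and 1.23, lay below the filter level, so it entered the test through the RLSC lines alone. Des (-0.83, SE 0.66) and Pdgfra (-0.79, SE 0.62) lay on the other side of 0 without passing. Mesothelial markers summed to 10320 and 5167 on the RLSC arrays and 24622 and 31571 on the MMH-D3 arrays. Upk1b, Bnc1 and Wt1 were called lower of 8 tested (0.516% of all genes) and 0 higher (0.397%), with a median of -2.62. Wt1 stood near the filter level in RLSC, at 9.2 and 14.8. Upk3b and Gpm6a, which enter that median, had RLSC means of 8.81 and 5.65, below the level, and passed the filter through MMH-D3 alone. Tbx18 went the other way without passing (2.69, SE 0.55, limma adjusted p = 0.110). It gave 77.6 and 90.3 on the RLSC arrays and 9.8 and 6.15, below the filter level, on the MMH-D3 arrays. Epithelial and cholangiocyte markers summed to 29196 and 18344 on the RLSC arrays and 48744 and 57891 on the MMH-D3 arrays. Of 10 tested 0 passed by limma, with 9 at an unadjusted p under 0.05 (12.4% of all genes) and a median of -1.05. Of the 10, 8 lay lower in both RLSC lines without overlap (21.4% of all genes), with Cdh1 and Ocln (-3.70, SE 1.39) farthest from 0. The other 2 lay higher (20.8% of all genes), Sox9 (2.67, SE 0.63) and Cldn4 (2.84, SE 0.82). Cldn4 gave 42 and 193 on the RLSC arrays and 3.5 and 16.7 on the MMH-D3 arrays. Its MMH-D3 mean of 10.1 lay below the filter level, so it entered the test through the RLSC lines alone. Cldn3, among the 8 lower, had an RLSC mean of 8.21 and entered through the MMH-D3 arrays alone. Hepatocyte markers had a median of -4.92. The part of such cell types in the marker differences was not tested, and in these bulk samples fewer cells of a type and less RNA per cell cannot be told apart.

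**Figure D4:**
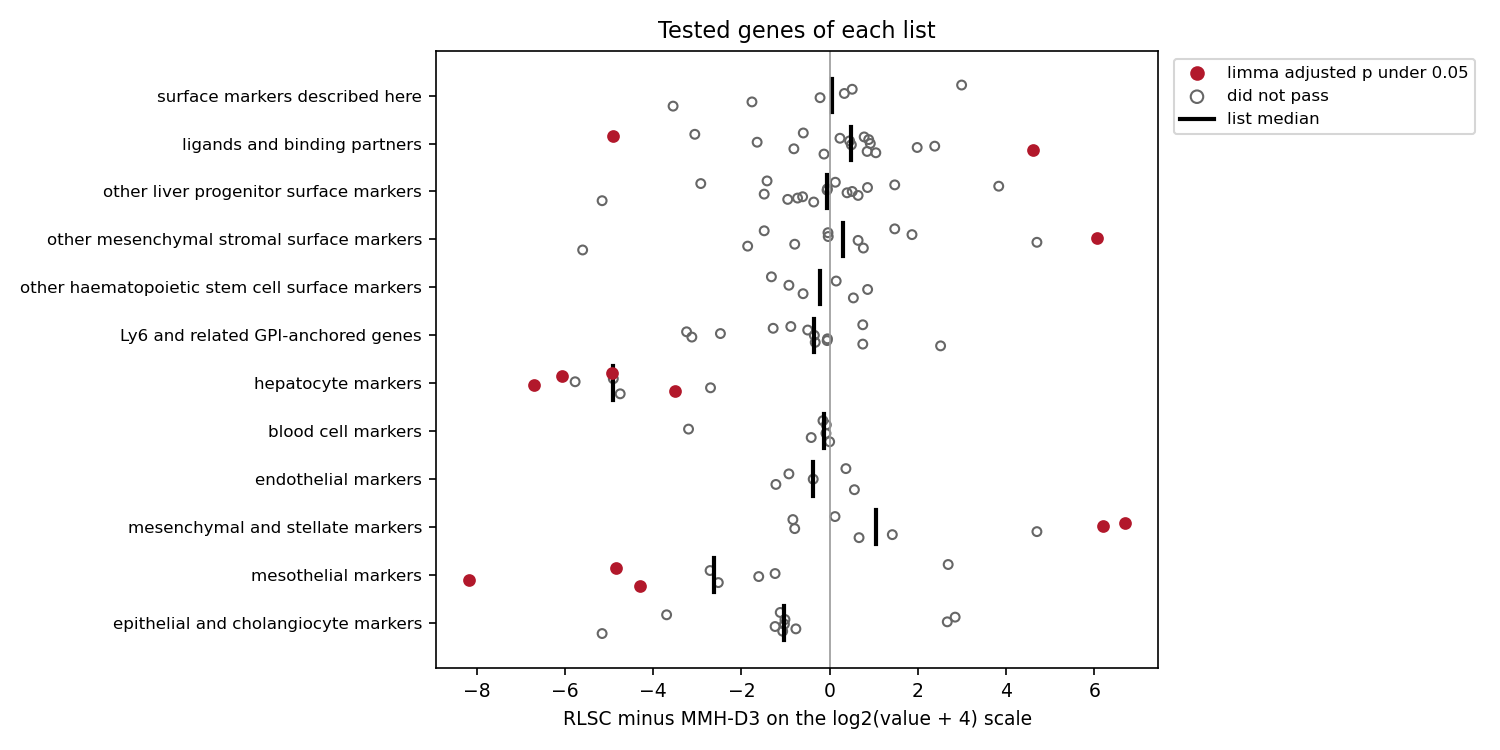
Difference RLSC minus MMH-D3 on the log2(value + 4) scale for each tested gene of the surface markers and of 11 further lists, with black bars at list medians. Filled red points passed limma at an adjusted p under 0.05. The surface markers have no filled point, whereas Has2 and Mcam stand among the points to the right and Tspan8 to the left.

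For the 4 surface marker genes whose array values spanned at least 4-fold, the genes with the most similar pattern were sought among all genes tested, by the Euclidean distance between the 4 centred log2 values. With 4 arrays many genes come close, so the names describe only these arrays. Nearest to Cd34 was Rgs3 (distance 0.20), a regulator of G protein signalling, which gave 62.3 and 131 on the RLSC arrays and 7.1 and 5.00 on those of MMH-D3. The growth factor gene Tgfb3 followed (0.28). Nearest to Alcam were Creb3l3 (0.26) and Agrn (0.32), and nearest to Epcam were the ubiquitin ligase gene Rnf128 (0.38) and the carbonic anhydrase gene Car2 (0.44). Prom1 had no gene as close, with Slfn2 at 0.72 and the growth factor gene Vegfc at 0.80.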

How the data were processed

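Affymetrix Mouse430_2 arrays were hybridised with RNA of 4 samples, from 5 μg of total RNA and 15 μg of fragmented cRNA each, per the labels. The authors deposited 1 signal per probe set, an intensity on a linear scale made with GCOS, per the submitters' processing notes, with version and settings not given in the sources used here. Groups came from titles and source names. The source name of WTE14/1 reads WT E14/3, and the title is used here.

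The 64 control probe sets were left out. The platform annotation gave 34945 probe sets 1 symbol and 932 several, and 9160 were unnamed here. Values entered as log2(value + 4), which understates folds of dim genes. Array medians differed by 0.61 on this scale, above a limit of 0.25, so arrays were quantile normalized. Probe sets below the 40th percentile of the mean were removed, and the probe set with the highest mean represented each gene. limma 3.58.1 in R 4.3.3 (lmFit, eBayes with an intensity trend, 2 residual and 4.24 prior degrees of freedom for genes) was run two-sided per gene and per probe set, and tested on simulated data.

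Named genes were all surface markers, the passing genes of each list (at most 4, by size) or else the 2 largest differences, 11 preset genes, and the 2 nearest profiles of each surface marker that spanned at least 2 on the log2 scale. Pecam1, Tat, G6pc, Cps1, Alb, Ttr, Apoa1, Sox9, Cldn3, Cldn4, Tbx18, Upk3b, Gpm6a, Ly6e, Vim, Des and Pdgfra were named after their values were seen. Surface markers, lists and batch pairs were chosen with earlier results of these data known. Promoter sequences are RefSeq's on GRCm38.p6, with 6 of the 9 genes matched by symbol. Alternatives were other normalizations, pseudocounts and filters, a batch block, no trend, the mean of probe sets and leaving out each array.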

Additional observations from a re-analysis of the deposited data

Results flagged for a closer look

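At 2 surface marker genes the RLSC lines lay on opposite sides of both MMH-D3 arrays, as did 11.4% of all genes tested. Prom1 was above both in MetE14/3 and below both in WTE14/1, a difference of 4.32 on the log2 scale (MetE14/3 minus WTE14/1), with signals of 140 and 4.07, the second below the filter level, and 3.02 with a pseudocount of 16. Cd44 was below both in MetE14/3 and above both in WTE14/1, a difference of -1.43, with signals of 2842 and 8035. Each line had 1 array and the lines lie in different batches, so these differences were not tested.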

How the results depend on the processing

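No surface marker gene or probe set passed under any alternative run. The directions of Cd34, Epcam, Alcam and Cd24a held under all alternatives that gave a value, with Cd34 between 2.29 and 3.67 (limma adjusted p from 0.0672 to 0.401), Epcam between -5.40 and -1.70 (limma adjusted p from 0.0698 to 0.598), Alcam between -2.82 and -0.71 and Cd24a between 0.27 and 0.71. Prom1 turned to 0.12 with a pseudocount of 16 and 2.57 within batch A, and ranged from -2.38 to 1.94 when 1 array was left out, at 1.94 without WTE14/1 and 0.41 without MMH-D3 array 2. Cd44 was -0.080 within batch A and ranged from -0.38 to 1.05 when 1 array was left out, turning without WTE14/1. Its other probe sets gave -0.13 (1434376_at) and -0.053 (1452483_a_at) within batch A, -0.064 for 1434376_at with arrays centred on their medians, and ranges of -0.65 to 0.98 and -0.19 to 1.30 when 1 array was left out. Kitl turned to 0.57 within batch A and 0.67 without MMH-D3 array 2 (range -0.93 to 0.67), and Adgre1 to 0.076 and 0.061 (range -0.90 to 0.061).

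Over all genes, 50 were higher and 65 lower in RLSC, against 67 and 97 with the batch as a block, 65 and 119 with arrays centred on their medians, and 4 and 5 without a filter. With 1 array left out they were 0 to 51 and 0 to 147, at 5 and 8 without WTE14/1 and both 0 by limma without MMH-D3 array 1 or 2, where 2228 and 1056 genes had an unadjusted p under 0.05. Over probe sets the main counts were 92 and 106, against 61 and 69 with a pseudocount of 1, 22 and 18 without a filter, 48 and 47 without the trend, 171 lower with median centring, and 0 to 66 and 0 to 136 with 1 array left out. Between the lines, 353 genes were at least 4-fold higher and 293 lower in MetE14/3, against 231 and 169 with a pseudocount of 16. Median centring moved the median of all genes to -0.11, against 0.03. Of 13 tested alternatives, Tspan8 and Upk1b passed under 11, Has2 and Mcam under 9, Acta2, Apob, Bnc1 and Wt1 under 8, Rbp4 and Tagln under 7, and Afp and Ambp under 6. The cause of these changes was not tested. Each batch holds 1 RLSC and 1 MMH-D3 array, so the block pairs the arrays by batch. The RLSC labels carry no replicate number to pair by. Signals near the filter level limit Cd34, Epcam, Prom1, Thy1 and Kit.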
